A study of Mus musculus with 336 samples.

Results

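The mammalian Hox genes were described in mouse skin fibroblasts (MSF) from mice without Bmal1 and from wild-type mice. Every gene of the MSF table with a symbol of Hoxa, Hoxb, Hoxc or Hoxd and a number was taken, which gave 39 members among 47633 rows, and all 39 were also found in both liver tables. The series sequenced polyadenylated RNA after synchronization with 100 nM dexamethasone for 15 min. Reads were of 50 bases in MSF and liver slices, and no read length was recorded for the short liver course. Bmal1, a basic helix-loop-helix factor of the circadian clock, is listed under the symbol Arntl.

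The groups were Bmal1-/- (KO) MSF and wild-type (WT) MSF, both on the C57BL/6 background and grown to confluence, with 24 libraries per genotype. Harvests started 48 h after dexamethasone and were spaced 3 h apart, with time labels of 0 to 69 h. KO and WT slices of adult liver of 500 micron followed the same plan, with 24 libraries per genotype. A short course of KO and WT liver held 12 libraries per genotype, with 3 replicates at each of 4 times. Each MSF and slice library was sequenced as 3 runs that share 1 FPKM column, that is, fragments scaled to transcript length and to the mapped fragments of the library. FPKM divide by length, so levels can be set side by side between genes. The labels give neither the body site of the skin nor the number of animals or isolates behind each genotype. They do not state that time points were separate cultures, so p-values measure the spread between these libraries, which may be technical. Depth is unknown, since the files hold FPKM and no counts.

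All 12 fibroblast markers reached a mean of 1 FPKM in both genotypes of MSF, and all 6 hepatocyte markers stayed below 0.1 FPKM. Arntl itself ran from 5.67 to 7.84 FPKM in KO MSF (median 6.84), against 8.79 to 11.9 FPKM in WT MSF (median 10.6). The labels do not say which part of the gene was deleted, so its FPKM over the whole gene is a weak check of them. In the short liver course its median was 2.32 FPKM in KO and 1.38 FPKM in WT, and the groups overlapped. The KO MSF libraries were run as 1 pool on lanes 5 to 7 and the WT MSF libraries as another on lanes 2 to 4 of the same flow cell. Genotype, pool and the source of the culture therefore cannot be told apart in any MSF difference given here. Between libraries of 1 genotype, log2 values correlated at 0.882 to 0.928 in KO and 0.906 to 0.935 in WT MSF, and none stood apart.

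Hox genes encode homeodomain transcription factors that give cells along the body axes their positional identity. In mammals they lie in 4 clusters, and genes at the same place in different clusters form a paralog group, numbered from 1 at the anterior end to 13 at the posterior end. Genes of low number are used from the hindbrain downwards, those of high number in caudal trunk, limb ends and genitalia. Adult dermal fibroblasts keep much of the code of the site they come from, so a Hox profile is a readout of the position of a fibroblast culture.

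KO and WT fibroblasts carried different Hox codes. With a mean of at least 1 FPKM taken as detected, KO MSF had 19 of the 39 members and WT MSF 24. Detected in both were 17, which is 89.5% of the KO set and 70.8% of the WT set. Hoxa6, Hoxa7, Hoxa9, Hoxa10, Hoxb9, Hoxc9 and Hoxc10 reached the level in WT alone, and Hoxb2 was among those that reached it in KO alone. The last detected gene of each cluster was Hoxa5, Hoxb8, Hoxc8 and Hoxd9 in KO MSF, against Hoxa10, Hoxb9, Hoxc10 and Hoxd9 in WT MSF. Clusters a, b and c thus reached further towards the posterior end in WT, while cluster d ended at the same gene in both.

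**Figure D1:**
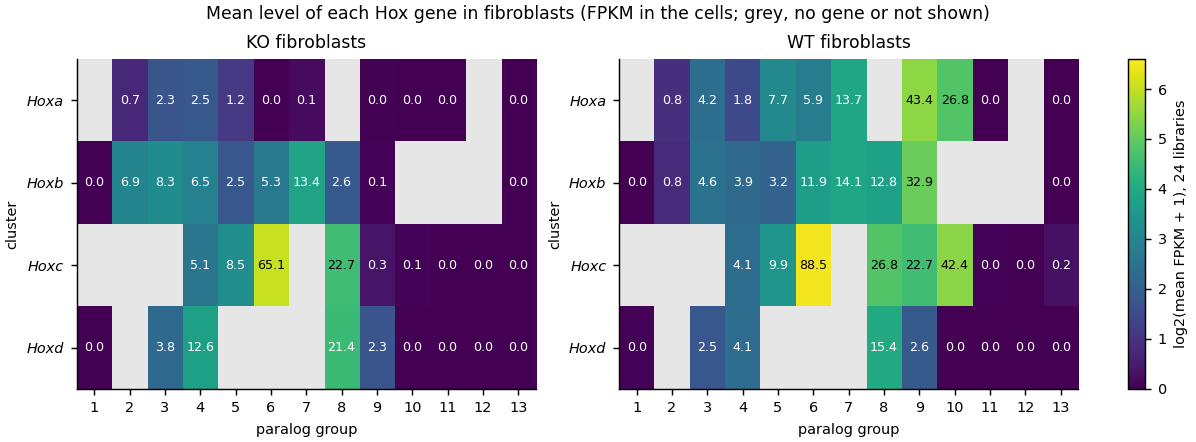
Mean FPKM of each Hox gene over 24 libraries in KO MSF (left) and WT MSF (right), with clusters as rows and paralog groups as columns; colour is log2(mean FPKM + 1) and grey marks places with no gene or with a gene not shown. Paralog groups 9 and 10 of clusters a, b and c are bright in WT and dark in KO, and Hoxc6 is the highest member in both.

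Paralog groups 9 to 13 together held 2.04 to 3.72 FPKM in KO MSF (median 2.78), against 163 to 181 FPKM in WT MSF (median 171). They made up a median of 1.43% of all Hox FPKM in KO and 41.8% in WT. For groups 4 to 8 the sum was 157 to 185 FPKM in KO (median 168) and 211 to 244 FPKM in WT (median 222). Groups 1 to 3 went the other way, with 20.3 to 29.2 FPKM in KO (median 23.9) and 11.7 to 15.7 FPKM in WT (median 13.6). No KO library overlapped the WT libraries in any of these sums. By cluster, the median share of cluster a was 4.35% of Hox FPKM in KO and 25.9% in WT, and that of cluster d 20.5% in KO and 5.92% in WT.

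Hoxc6, a gene of the thoracic and brachial region, was the most abundant member in both cultures, with a mean of 65.1 ± 5.29 FPKM in KO and 88.5 ± 6.17 FPKM in WT (SD, n = 24 each). It was followed in KO by Hoxc8 and Hoxd8, whose means lay within 1 SD of each other, and then by Hoxb7 and Hoxd4, which did not separate either. In WT the next were Hoxa9 and Hoxc10, not separable from each other, then Hoxb9, and then Hoxc8 and Hoxa10, again not separable. Of the 5 next most abundant members after Hoxc6 in WT, all but Hoxc8 were below 0.4 FPKM in every KO library.

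Differences between genotypes were tested with limma on log2(FPKM + 1) in the 15065 genes that averaged 1 FPKM or more over the 48 libraries, with Benjamini-Hochberg adjustment over all of them. Called genes had an adjusted p below 0.05 and differed by 1 or more in log2 units. Differences on this scale understate the change of low genes, and with a pseudocount of 0.1 those of Hoxa6, Hoxa7, Hoxa9, Hoxa10, Hoxb9 and Hoxc10 were -5.79 to -8.47, against -2.77 to -5.42. Of the 39 members 26 were tested, and 12 were called, 2 higher and 10 lower in KO MSF. Among all genes 16% were called, 6.21% as higher and 9.82% as lower. Of the 10 lower members 7 passed the filter on low values through WT alone, and of the 2 higher ones Hoxb2 through KO alone. They had to differ, so the counts support nothing by themselves. The median difference of the tested members was -0.25, and that of all genes -0.04. By adjusted p alone 81.2% of all genes passed, so the size of a difference says more here than its p.

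**Figure D2:**
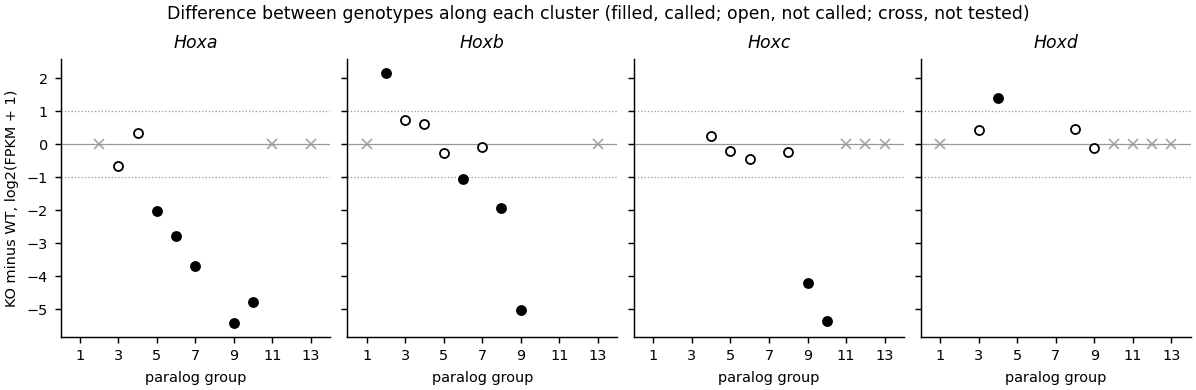
Difference between KO and WT MSF on the log2(FPKM + 1) scale (y axis) by paralog group (x axis), 1 panel per cluster; bars are standard errors, mostly smaller than the points, and 1 member is not shown. In clusters a, b and c the lowest values, between -4.19 and -5.42, are at groups 9 and 10, while cluster c lies between -0.44 and 0.24 up to group 8, and in cluster d Hoxd9 lies near 0.

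The genes of cluster a from Hoxa6 to Hoxa10 were listed at or near 0 in KO. Hoxa9 (chromosome 6, 52223100 to 52231089, minus strand, GRCm38), which patterns the trunk and supports blood progenitors, was listed at 0 to 0.353 FPKM in KO MSF (median 0, with 13 of 24 libraries at 0), against 36.1 to 50.1 FPKM in WT MSF (median 43.8). Hoxa10 (52231197 to 52240854), a Hox10 gene of the group that suppresses ribs in the lumbar spine, was at 0 to 0.0867 FPKM in KO (17 libraries at 0) and at 24.9 to 30.3 FPKM in WT. Both sets of libraries were thus fully separated, with fitted differences of -5.42 ± 0.03 for Hoxa9 and -4.77 ± 0.01 for Hoxa10 (SE, adjusted p = 8.1e-61 and 2.3e-68). No fold is given for either, because many KO libraries are listed at 0.

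Hoxa7 (52214491 to 52221854), a thoracic patterning gene, ranged from 0 to 0.491 FPKM in KO (median 0.115) and from 11.7 to 15.8 FPKM in WT (median 13.8). Hoxa6 (52206288 to 52208722), its neighbour, was at 0 in 19 KO libraries and at most 0.0837 FPKM, against 4.23 to 7.72 FPKM in WT. The fitted differences were -3.68 ± 0.03 and -2.77 ± 0.04 (SE, adjusted p = 6.1e-53 and 3.3e-43). Hoxa5 (52201754 to 52204587), which is needed for lung and cervicothoracic skeleton, stood on the other side of the divide. It was above 0 in every KO library, at 0.858 to 1.64 FPKM (median 1.08), against 6.64 to 9.02 FPKM in WT (median 7.72), a difference of -2.02 ± 0.04 (SE, adjusted p = 5.2e-39).

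Windows before transcript starts of these genes are shown because the members near 0 in KO begin in cluster a at Hoxa6, next to Hoxa5. RefSeq windows of 250 bases before a RefSeq transcript start (build GRCm38.p6) were matched to 22 of the 39 members. Hoxa5 and Hoxa6 lie on both sides of that edge, and Hoxa9 had the highest level in WT among the members near 0 in KO. The RefSeq start of Hoxa9 lies inside the longer gene bounds given above, so its window is not upstream of those bounds. Capitals mark CpG, the dinucleotide that carries DNA methylation.
Hoxa5, chr6:52204588-52204837, minus strand: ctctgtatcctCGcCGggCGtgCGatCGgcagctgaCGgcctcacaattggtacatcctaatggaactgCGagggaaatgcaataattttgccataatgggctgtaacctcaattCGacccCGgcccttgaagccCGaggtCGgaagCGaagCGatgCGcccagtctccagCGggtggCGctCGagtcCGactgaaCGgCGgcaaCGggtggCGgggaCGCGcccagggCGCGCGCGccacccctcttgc
Hoxa6, chr6:52208673-52208922, minus strand: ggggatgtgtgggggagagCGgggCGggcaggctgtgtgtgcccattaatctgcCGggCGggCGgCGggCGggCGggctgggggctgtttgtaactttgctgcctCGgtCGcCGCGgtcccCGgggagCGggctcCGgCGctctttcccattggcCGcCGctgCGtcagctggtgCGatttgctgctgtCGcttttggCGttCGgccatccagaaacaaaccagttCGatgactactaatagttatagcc
Hoxa9, chr6:52227371-52227620, minus strand: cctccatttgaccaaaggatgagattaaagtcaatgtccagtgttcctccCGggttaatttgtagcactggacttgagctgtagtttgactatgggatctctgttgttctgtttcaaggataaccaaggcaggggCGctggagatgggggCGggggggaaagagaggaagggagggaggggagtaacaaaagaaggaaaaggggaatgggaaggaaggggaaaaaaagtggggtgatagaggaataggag
The windows of Hoxa5 and Hoxa6 hold 28 and 24 CpG and that of Hoxa9 holds 3, against a median of 6 (quartiles 2 and 16) over all 32851 windows. Among the other members of cluster a that averaged 1 FPKM in either genotype and had a window, Hoxa3 had 18 CpG, Hoxa7 had 7, and Hoxa10 had 20 and 7 in its 2 windows. The canonical E-box CACGTG, the motif that CLOCK and BMAL1 bind, was searched in the same windows and reads alike on both strands. It occurs in 6.02% of all windows and in those of Hoxd1, Hoxd10, Hoxd11 and Hoxd13, none of them detected in either genotype. It was found in no window of a called member, which says only that these letters are not in those 250 bases. The called members Hoxb2, Hoxb6, Hoxb9, Hoxc9 and Hoxc10 had no window and were not searched.

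In cluster b the members called lower in KO were Hoxb6, Hoxb8 and Hoxb9. Hoxb9 (chromosome 11, 96271457 to 96276595, plus strand), a thoracic gene, ran from 0 to 0.215 FPKM in KO (median 0.0344, with 5 libraries at 0), against 30.5 to 35.4 FPKM in WT (median 33). Hoxb8 (96281905 to 96285315), which also marks a microglial lineage in mouse, was at 2.16 to 3.65 FPKM in KO (median 2.57) and at 9.97 to 15.0 FPKM in WT (median 12.9). Hoxb6 (96292476 to 96301569), a trunk gene, had 4.36 to 6.75 FPKM in KO (median 5.26) and 10.4 to 15.3 FPKM in WT (median 11.8). The groups did not overlap for any of these genes. Fitted differences were -5.01 ± 0.02, -1.93 ± 0.03 and -1.04 ± 0.03 for Hoxb9, Hoxb8 and Hoxb6 (SE, adjusted p = 7.2e-65, 1.3e-39 and 7.2e-32). Hoxb6 lies on the limit of 1, and with median-of-ratios size factors its difference was -0.99 and it was not called. Hoxb7, between them, did not pass (-0.07 ± 0.03, SE, adjusted p = 0.0514), with 10.8 to 14.8 FPKM in KO and 12.2 to 16.8 FPKM in WT.

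The Hox clusters also hold microRNAs that repress Hox messages, shown here because their hosts and neighbours are among the genes that differ. The 5-prime products of the miR-196 family and of the miR-10 family are printed below with the seed, bases 2 to 8, in capitals.
miR-196a-5p: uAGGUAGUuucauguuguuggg
miR-196b-5p: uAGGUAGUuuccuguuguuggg
miR-10a-5p: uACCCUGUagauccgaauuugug
miR-10b-5p: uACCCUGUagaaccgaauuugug
Both miR-196 products share one seed and both miR-10 products another. The row of Mir196a-1, which lies beyond Hoxb9 (its mature sequence at chr11:96265187-96265208, plus strand), was at 0 in all 24 KO libraries, against 20.8 to 174 FPKM in WT (median 97.9). Mir196a-2, the other locus of miR-196a, lies between Hoxc10 and Hoxc9 and was at 0 in all KO and in 23 of 24 WT libraries. Mir196b, inside Hoxa9, was at 0 in all KO and in 22 of 24 WT libraries. Mir10a was at 0 in 17 KO and 20 WT libraries, and Mir10b in 22 KO and 24 WT libraries. These rows are short, so a few reads give a high FPKM, and in poly(A) RNA they report longer transcripts across the hairpin and not the mature miRNA. The known target site of miR-196a in the Hoxb8 message pairs at 21 of 22 bases (capitals, plain complement), at bases 2208 to 2229 of the annotated transcript.
miR-196a site in Hoxb8: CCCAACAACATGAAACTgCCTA
Hoxb8 and the Mir196a-1 row were both lower in KO, and mature miR-196a was not measured here.

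In cluster c the genes of groups 9 and 10 were near 0 in KO. Hoxc10 (chromosome 15, 102966796 to 102971893, plus strand), a marker of lumbar and hindlimb position, was at 0 to 0.257 FPKM in KO (median 0.0281, with 6 libraries at 0), against 37.4 to 47.9 FPKM in WT (median 42.4). Hoxc9 (102976439 to 102985099), which sets the thoracic motor columns, was at 0.0803 to 0.623 FPKM in KO (median 0.311) and at 19.8 to 26.8 FPKM in WT (median 22.7). All KO libraries were below all WT libraries. The differences were -5.37 ± 0.02 and -4.19 ± 0.03 (SE, adjusted p = 4.3e-62 and 2.4e-55). Hoxc8 (102990607 to 102994111), the next gene towards the anterior end and a brachial motor pool gene, had 20.8 to 25 FPKM in KO (median 22.9) and 23.8 to 32.0 FPKM in WT (median 26.6). KO was below WT at all 24 time points although the ranges overlapped, and the difference of -0.23 ± 0.02 (SE, adjusted p = 1.4e-12) was not called. Hoxc6 (102998257 to 103011881) had 55.6 to 77.1 FPKM in KO (median 64.3) and 80.7 to 99.1 FPKM in WT (median 87.9), with no overlap and a difference of -0.44 ± 0.02 (SE, adjusted p = 5.8e-26). Within one stretch of the cluster, Hoxc9 and Hoxc10 were thus near 0 in KO beside abundant neighbours.

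**Figure D3:**
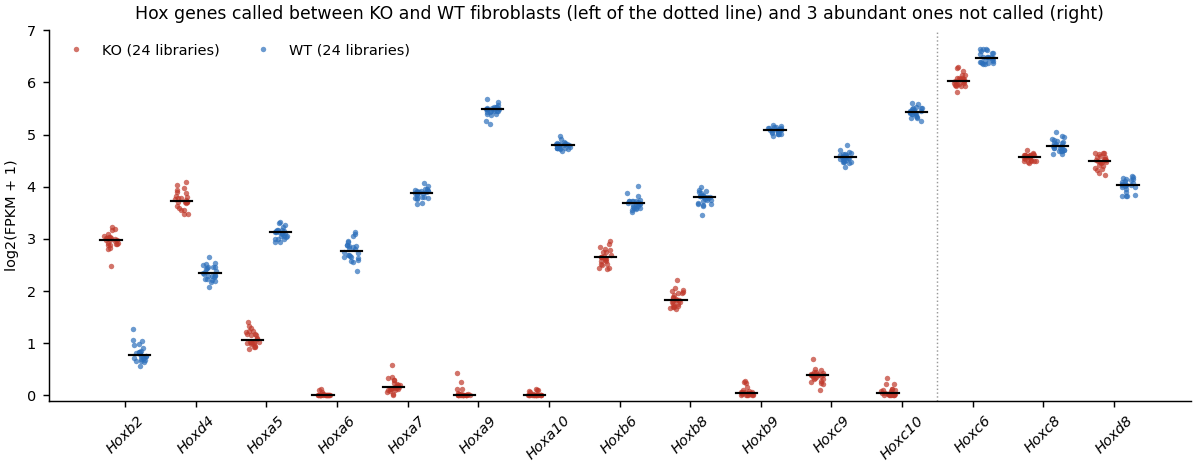
Value of every library on the log2(FPKM + 1) scale (y axis) for the 12 called members and for Hoxc6, Hoxc8 and Hoxd8, which are abundant but not called; in each pair KO is left of WT and bars are medians. The 7 members listed near 0 in KO lie between 4.23 and 50.1 FPKM in WT, and only Hoxc8 overlaps between genotypes among these 15 genes.

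The members called higher in KO were Hoxb2 and Hoxd4, of paralog groups 2 and 4. Hoxb2 averaged 0.769 FPKM in WT and passed the filter through KO alone, so its call supports nothing by itself. Hoxb2 (chromosome 11, 96350525 to 96354012, plus strand), a hindbrain gene, was at 4.62 to 8.36 FPKM in KO (median 6.94), against 0.482 to 1.41 FPKM in WT (median 0.714). Hoxd4 (chromosome 2, 74711929 to 74729160, plus strand), a gene of the hindbrain and neck vertebrae, was at 10.1 to 16 FPKM in KO (median 12.3) and at 3.23 to 5.27 FPKM in WT (median 4.07). Every KO library was above every WT library for both. The differences were 2.16 ± 0.04 and 1.40 ± 0.03 (SE, adjusted p = 4.2e-37 and 3.4e-34). Hoxd8 (74704615 to 74707933), a trunk gene, was higher too without reaching the limit of 1, at 17.8 to 24.1 FPKM in KO (median 21.6) and 13.1 to 17.5 FPKM in WT (median 15.4), a difference of 0.46 ± 0.03 (SE, adjusted p = 2.6e-17). Hoxd4 shares 52.3% of its exonic bases with Hoxd3 and Gm28230 on the same strand, so reads can be split between them and both levels are uncertain.

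The windows of Hoxb8, lower in KO, and of Hoxd4, higher in KO, are shown because they alone among the matched members hold TTTATNG, the core that CDX factors recognise. Both strands were searched, 9.81% of all windows hold it, and capitals mark the matches.
Hoxb8, chr11:96281655-96281904, plus strand: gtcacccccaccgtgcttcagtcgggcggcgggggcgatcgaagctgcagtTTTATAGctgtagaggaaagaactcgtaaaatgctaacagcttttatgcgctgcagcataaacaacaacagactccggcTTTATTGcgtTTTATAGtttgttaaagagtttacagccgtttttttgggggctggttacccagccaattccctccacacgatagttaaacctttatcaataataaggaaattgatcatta
Hoxd4, chr2:74721728-74721977, plus strand: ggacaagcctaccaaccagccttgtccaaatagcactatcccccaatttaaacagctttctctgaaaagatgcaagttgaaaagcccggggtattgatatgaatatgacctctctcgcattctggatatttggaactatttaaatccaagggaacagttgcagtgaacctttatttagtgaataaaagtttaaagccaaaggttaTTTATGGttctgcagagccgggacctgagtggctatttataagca
Hoxb8 has 3 matches and Hoxd4 1 match, and the RefSeq start of Hoxd4 lies inside the longer gene bounds given above. The 3 Cdx genes, homeobox regulators of posterior Hox expression in the embryo, averaged at most 0.0881 FPKM in MSF of either genotype.

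The other tested members differed by less than the limit of 1. Hoxa4, Hoxb3, Hoxb4, Hoxc4 and Hoxd3 were higher in KO by adjusted p alone, with differences of 0.24 to 0.73. Hoxa3, a gene of the throat organs and neck, was lower by 0.65, and Hoxb5, Hoxc5 and Hoxd9 were lower by 0.27, 0.20 and 0.11. The last is not stable over the course, since without day 3 the difference of Hoxd9 was -0.03 (adjusted p = 0.554) and without day 1 it was -0.20, and without day 3 that of Hoxc5 was -0.14. Of these, Hoxb3 (6.07 to 11.1 FPKM in KO, 3.45 to 5.66 FPKM in WT) and Hoxb4 (5.70 to 7.90 FPKM in KO, 3.32 to 4.39 FPKM in WT) did not overlap between genotypes, with KO above. Hoxa3 was fully below WT, at 1.76 to 3.47 FPKM in KO and 3.58 to 5.29 FPKM in WT. Counted over the 26 members detected in either genotype, KO libraries were all above WT in 6, all below in 12 and overlapping in 8, where 14.5% of all tested genes were all above and 21.2% all below. Of the 26, 7 averaged below 1 FPKM in KO and 2 below 1 FPKM in WT. Those passed the filter through a single genotype, so the counts support nothing by themselves. Hoxb3 shares 52.9% of its exonic bases with the antisense gene Hoxb3os, and Hoxa3 25.4% with antisense genes. Among the called members, Hoxb2 shares 27.3% with Hoxb3os, Hoxa7 20.4% with Hoxaas3 and Hoxd4 11.8% with Hoxd3os1, all antisense. The counting strand is not given in the sources used here, so those levels are uncertain. Hoxd3 had the widest spread (1.93 to 6.50 FPKM in KO, 1.12 to 3.76 FPKM in WT), and the lower bound that the authors give for it was above 0 in 7 KO and 9 WT libraries.

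The remaining 13 members were below the limit in both genotypes. Hoxa2, a gene of the second pharyngeal arch, came nearest, at 0.393 to 0.970 FPKM in KO and 0.413 to 1.08 FPKM in WT. Hoxa11, Hoxa13, Hoxb13, Hoxc12, Hoxd12 and Hoxd13 were listed at 0 in all 24 KO libraries, and none exceeded 0.05 FPKM in WT. Hoxb1, Hoxc11, Hoxd1, Hoxd10 and Hoxd11 stayed below 0.12 FPKM in every library. Hoxc13, a regulator of hair and nail, was low but apart between genotypes, at 0 to 0.0193 FPKM in KO and 0.114 to 0.338 FPKM in WT with no overlap. Genes of groups 11 to 13, which mark limb ends and genital skin, were thus close to 0 in both cultures.

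Several members also drifted within the 3 days, no more often than all genes did. No member had a 24 h rhythm by limma's F test in MSF of either genotype, where 1 of 15065 genes was called in KO (0.00664%) and 10 in WT (0.0664%). The lowest adjusted p of a member was 0.324 in KO and 0.517 in WT, and 4 members in KO and 2 in WT had an unadjusted p below 0.05. A linear trend was called for 6 of the 26 tested members in KO (background 28.5%) and 5 of 26 in WT (background 28.7%). Both shares were below those of all genes. In KO Hoxc6, Hoxd4 and Hoxa3 fell by 0.10, 0.15 and 0.09 per day on the log2 scale, and Hoxa4, Hoxb4 and Hoxb8 rose by 0.09, 0.07 and 0.08. In WT Hoxd9, Hoxc6, Hoxa7 and Hoxa9 rose by 0.17, 0.08, 0.07 and 0.07, and Hoxc8 fell by 0.08. Some of these trends rest on single libraries. That of Hoxa3 was lost without any 1 of the KO libraries at 0, 3, 9, 24, 51, 54, 57 or 66 h, that of Hoxb4 without the one at 0 or 69 h, and those of Hoxa4 and Hoxb8 without the one at 69 h, which left 3 members in KO. In WT the trend of Hoxa7 was lost without the library at 3, 12, 54 or 60 h and that of Hoxa9 without the one at 3 or 15 h.

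The drift differed between genotypes for 4 of the 26 tested members, tested as the difference of slopes, a smaller share than among all genes (background 26.4%). Hoxc6 had daily means of 70.0, 64.5 and 60.6 FPKM in KO and 85.1, 85.0 and 95.4 FPKM in WT over days 1, 2 and 3, so the cultures moved apart (difference of slopes -0.18 ± 0.02 per day, SE, adjusted p = 4.0e-09). Hoxd9, a posterior trunk and limb gene, had 2.37, 2.35 and 2.32 FPKM in KO and 2.22, 2.67 and 2.98 FPKM in WT (-0.18 ± 0.04, adjusted p = 0.000788). Hoxd4 had 14.1, 12.2 and 11.3 FPKM in KO and 4.21, 4.13 and 4.07 FPKM in WT (-0.13 ± 0.04, adjusted p = 0.0152). Hoxc8 approached between genotypes, with 22.5, 22.3 and 23.3 FPKM in KO and 29.3, 25.4 and 25.8 FPKM in WT (0.10 ± 0.03, adjusted p = 0.0029). All 4 differences of slopes were also called in each of 48 fits that left out 1 library.

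**Figure D4:**
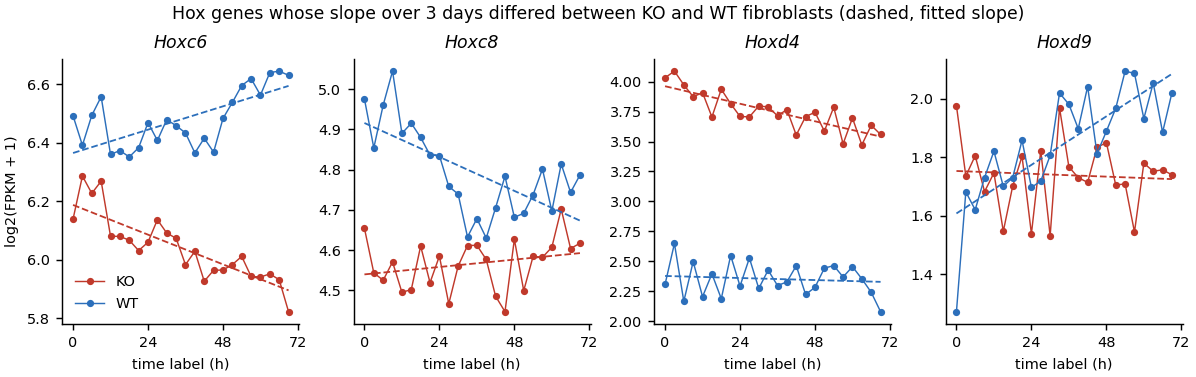
log2(FPKM + 1) of Hoxc6, Hoxc8, Hoxd4 and Hoxd9 (y axis, each panel on its own scale) against the time label in hours (x axis), 1 point per library, with KO and WT MSF as separate lines and fitted slopes dashed. Hoxc6 falls in KO and rises in WT, and the WT value of Hoxd9 at 0 h is the lowest of its panel.

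Genes that work with or mark the same positional system were counted from fixed lists in the same fit. Among all genes 16% were called, 6.21% as higher and 9.82% as lower in KO. Among 9 TALE cofactors, the PBX, MEIS and PREP homeodomain proteins that bind DNA together with HOX, 4 rose in KO, none fell and 5 were not called (median 0.51, all genes -0.04). Of those that rose, Meis1 averaged 27.8 ± 3.89 FPKM in KO and 10.7 ± 0.78 FPKM in WT (SD, n = 24 each), a difference of 1.29 ± 0.03. The differences of Pbx4 and Meis3 were 1.14 ± 0.09 and 1.10 ± 0.05 (SE, adjusted p at most 1.2e-15 for the 3 genes). Of 6 tested cluster noncoding RNAs only Halr1, next to the anterior end of cluster a, was called, at 8.72 to 19.2 FPKM in KO and 0.140 to 3.41 FPKM in WT (2.40 ± 0.10, SE, adjusted p = 1.2e-25).

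Some other positional factors were also abundant in one culture and near 0 in the other. Of 40 listed factors of limb, trunk and face 18 were tested, and 4 rose, 5 fell and 9 were not called (median -0.26). Among all genes 6.21% rose and 9.82% fell. Zic1, a zinc finger factor of dorsal neural tube and somites, was at 0 to 0.282 FPKM in KO and at 60.3 to 82.1 FPKM in WT (difference -6.04 ± 0.03, SE, adjusted p = 1.9e-63). Alx4, a limb and skull homeobox gene, was at 6.12 to 7.53 FPKM in KO and at most 0.0436 FPKM in WT (2.94 ± 0.02, adjusted p = 5.2e-59). Foxf1, a forkhead factor of mesenchyme around the gut and lung, and En1, which marks a dermal fibroblast lineage of the back, had differences of -2.57 ± 0.03 and -2.16 ± 0.02 (adjusted p = 4.5e-47 and 3.1e-48). Foxf1 was at 0.254 to 0.824 FPKM in KO and 7.29 to 9.21 FPKM in WT, and En1 at 2.60 to 3.78 FPKM in KO and 15.6 to 18.9 FPKM in WT. Zic1 and Foxf1 passed the filter through WT alone and Alx4 through KO alone, so the counts of this list support nothing by themselves. Named after their values were seen and too low for the filter, Tbx5, which specifies the forelimb, was at 0.196 to 0.706 FPKM in KO and at 0 in 22 of 24 WT libraries. Pax1, a sclerotome and shoulder girdle gene, was at 0.591 to 1.77 FPKM in KO and at 0 in all WT libraries. Its paralog Pax9 was at 0 in all KO libraries and at 1.48 to 2.05 FPKM in WT.

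The chromatin machinery that keeps Hox clusters on or off was called in 1 gene. Where 16% of all genes were called, 1 of 16 tested Polycomb genes fell and none rose (median 0.23). That gene was Ezh2, the main H3K27 methyltransferase and a gene that dividing cells express more, with 10.9 to 19.5 FPKM in KO and 34.5 to 54.8 FPKM in WT (-1.52 ± 0.05, SE, adjusted p = 4.6e-30). None of 11 tested Trithorax and demethylase genes was called (median -0.03). By adjusted p alone 9 passed, as did 81.2% of all genes. The highest in mean, Psip1, a cofactor of MLL complexes, had a difference of -0.87. None of 3 tested genes upstream of Hox was called (median 0.77), and Rarg, a retinoic acid receptor, had a difference of 0.77. Where 9.82% of all genes fell, 2 of 8 tested genes published as Hox targets in limb and connective tissue fell and none rose (median 0.09). They were the ephrin receptor gene Epha3, at most 0.0670 FPKM in KO and 8.15 to 15.5 FPKM in WT (-3.70 ± 0.02), and the Wnt modulator gene Sfrp2, at 2.96 to 7.91 FPKM in KO and 21.9 to 52.3 FPKM in WT (-2.39 ± 0.05). Epha3 passed the filter through WT alone, so the count of this list supports nothing by itself. None of the 7 listed ParaHox and linked homeobox genes passed the filter.

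Markers of other cell types moved with the genotypes as well, where 16% of all genes were called. Of the called markers, Cspg4, Rgs5, Trp63, Kdr and Ngfr passed the filter through WT alone and Fabp4 through KO alone. These had to differ, so the counts below support nothing by themselves. All 4 tested markers of smooth muscle and pericytes were called lower in KO, with Cspg4 at most 0.0391 FPKM in KO and 2.60 to 4.97 FPKM in WT, and the summed level of that list was 103 to 180 FPKM in KO and 275 to 345 FPKM in WT. The others of the 6 listed, Myh11 and Des, did not pass the filter and went the other way. Their means were below 0.1 FPKM in WT alone. Of 9 tested fibroblast markers 1 was called higher and 2 lower, with Dcn higher and Thy1 and Pdgfra lower in KO. Of 6 keratinocyte markers 2 were tested and 1, Trp63, was lower, while Krt5 and Krt1 were below 0.1 FPKM in both cultures, and the sum was 2.50 to 4.26 FPKM in KO and 9.19 to 15.2 FPKM in WT. Macrophage markers summed to 1.24 to 2.77 FPKM in KO and 0.838 to 2.36 FPKM in WT, with Ptprc, Adgre1 and C1qa below 0.1 FPKM. Markers higher in KO were the mesothelial gene Krt19, at 46.5 to 130.3 FPKM in KO and 4.12 to 13 FPKM in WT, and the adipocyte gene Fabp4, at 1.94 to 4.71 FPKM in KO and 0.237 to 1.34 FPKM in WT. They were called among 2 tested of 4 mesothelial and 1 tested of 4 adipocyte markers, with sums of 50.0 to 131.8 FPKM and 2.03 to 4.76 FPKM in KO, against 7.49 to 14.5 FPKM and 0.237 to 1.45 FPKM in WT. Upk3b and Wt1 were below 0.1 FPKM in WT alone, while Adipoq and Lep were below it in both. One of 2 tested markers each was lower in KO in the endothelial (Kdr), stellate (Ngfr) and biliary (Spp1) lists, whose sums were 1.80 to 4.48, 15.5 to 31.0 and 33.2 to 49.3 FPKM in KO, against 6.57 to 13.1, 38.3 to 52.0 and 608 to 916 FPKM in WT. Cdh5, Lrat, Reln, Krt7 and Epcam of these lists were below 0.1 FPKM in both cultures. The endothelial gene Stab2 was below it in WT alone, so it went the other way. The part of these cell types in the Hox differences was not tested. In bulk libraries, fewer cells of a type and less RNA per cell cannot be told apart.

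Liver carried fewer Hox genes, mostly of low and middle paralog number. In slices 7 members were detected in KO (Hoxa4, Hoxa5, Hoxb2, Hoxb3, Hoxb4, Hoxb5 and Hoxb7) and 8 in WT, which added Hoxa3. No member of clusters c or d reached the level, and the summed paralog groups 9 to 13 had medians of 0.438 FPKM in KO and 0.283 FPKM in WT slices. Hoxb4, a gene of neck vertebrae and blood progenitors, was the highest, at 1.59 to 24.4 FPKM in KO (median 8.23) and 4.82 to 16.1 FPKM in WT (median 7.67). Of 8 tested members none was called by limma, where 5.23% of 14566 genes were, although 6 (Hoxa3, Hoxa4, Hoxa5, Hoxb2, Hoxb3 and Hoxb5) were lower in KO by adjusted p alone, where 72.8% of all genes passed. The differences of the 8, from -0.03 to -0.56, lay around the median of all genes, which was -0.34 as deposited and -0.01 after median-of-ratios scaling. Fibroblast markers summed to 153 to 1825 FPKM in KO slices (median 280) and 424 to 1869 FPKM in WT slices (median 864), and their part in these differences was not tested. A 24 h rhythm was called by limma's F test for Hoxb4, Hoxa5 and Hoxa4 in KO slices (background 23.1%), with amplitudes of 0.77, 0.51 and 0.29 on the log2 scale (adjusted p = 0.0043, 0.0154 and 0.0261), and for no member in WT slices (background 1.75%), where 2 had an unadjusted p below 0.05. Hoxa4 was among these 2, with an amplitude of 0.32 in WT (unadjusted p = 0.0015, adjusted p = 0.0633). In KO its unadjusted p by the same F test was 0.0045, so its rhythm was not weaker in WT. P-values were adjusted within each genotype. The rhythms differed between genotypes for Hoxa4 and Hoxa5 (adjusted p = 0.0114 and 0.0467, background 4.13%). Fitted peaks of Hoxa4 were at 4.28 h in KO and 17.6 h in WT, and those of Hoxa5 at 2.66 h in KO and 17.9 h in WT. Without day 2 or without day 3 neither a rhythm nor a difference of rhythms was called for any member. The rhythm of Hoxa4 in KO was also lost without the KO library at 27, 30, 39 or 42 h, and that of Hoxa5 without the one at 39 h. A rhythm of Hoxa4 in WT was called without the KO library at 9, 27 or 39 h or the WT library at 6 h. The difference of Hoxa5 was lost without any 1 of 23 libraries, KO at 3, 15, 27, 30, 33, 39, 42, 45, 57 or 66 h and WT at 0, 3, 12, 15, 18, 27, 39, 42, 48, 51, 54, 66 or 69 h. In the short course Hoxa5 alone was detected, at 0.373 to 4.49 FPKM in KO (median 1.26) and 0.523 to 6.53 FPKM in WT (median 1.91), and it was not called (-0.31 ± 0.07, SE, adjusted p = 0.00627, background 1.81%). Of the posterior genes that separated the MSF cultures, Hoxb9 was at most 0.243 FPKM in KO slices and 0.455 FPKM in WT slices. The tables were normalized separately, so levels across them are side by side only.

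**Figure D5:**
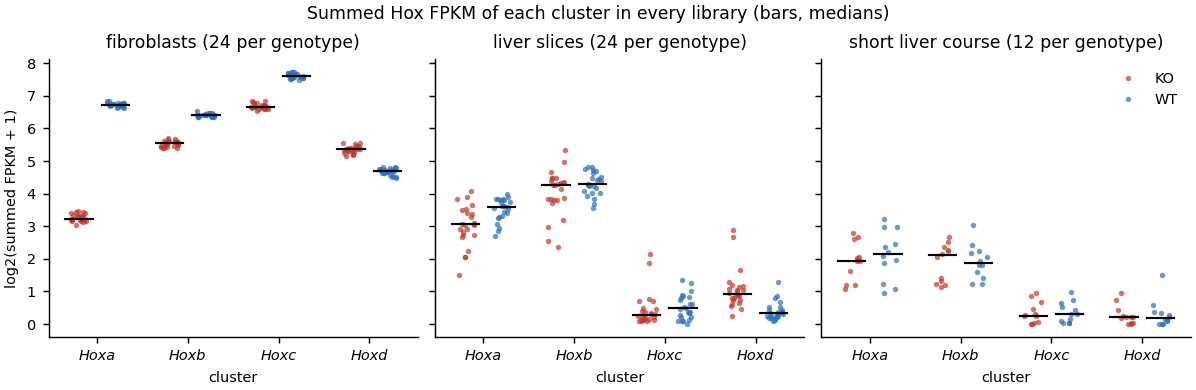
Summed FPKM of each Hox cluster on a log2(sum + 1) scale (y axis) in every library of MSF, liver slices and the short liver course, with KO left of WT and bars at the medians. Clusters c and d are high in MSF and low in liver, and KO and WT are fully apart in MSF for all 4 clusters but overlap in liver.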

How the data were processed

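Polyadenylated RNA was sequenced with a stranded kit, per the labels' protocols. The submitters' processing notes name TopHat2 2.1.0, Cuffdiff and the build GRCm38. Annotation release, counting strand and scaling between libraries: not given in the sources used here. Deposited tables hold FPKM per gene, computed by the authors, with a lower bound and a status per value. Runs of 1 library share a column, and 0 per-sample columns of FPKM were unused. The protocol states 3 samples per time point, while the long tables hold 1 value. Genes with a FAIL or HIDATA status in MSF, 118 in all, were dropped.

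Symbols were matched for 47219 of 47633 IDs, and coordinates come from GENCODE annotation of GRCm38. Values were analysed as log2(FPKM + 1) by limma (3.58.1; R 4.3.3), with its empirical Bayes trend, where genes averaged 1 FPKM or more. MSF and slices were fitted with genotype, a linear trend and a 24 h cosine and sine per genotype, and the short course with genotype and time. P-values were adjusted over all genes tested. The fits were tested on simulated data. Slices and MSF have no replicate number beyond the time label. Alternatives were a pseudocount of 0.1, no filter, size factors, time or replicate block, days or replicates left out, and other limits for detection; leaving out each library, the rhythms in slices and the limit on the lower bound were chosen after seeing the data. Members were named, in detail the called ones that reached 5 FPKM in either genotype and the 3 most abundant uncalled ones, and up to 4 called genes per list by size of difference. 1 member and 1 cofactor enter the counts and sums but are not reported singly here. The members and lists were chosen with earlier results of these data known. Promoter and miRNA sequences are from RefSeq (GRCm38.p6).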

Additional observations from a re-analysis of the deposited data

Results flagged for a closer look

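The slope over 3 days differed between KO and WT MSF in 4 members by limma's test of the difference. It was -0.18 per day on the log2 scale for Hoxc6, 0.10 for Hoxc8, -0.13 for Hoxd4 and -0.18 for Hoxd9, as KO minus WT. In fits that left out 1 library in turn, the values ranged from -0.19 to -0.17, from 0.09 to 0.12, from -0.15 to -0.11 and from -0.19 to -0.15. Among all 15065 tested genes 26.4% passed the same test, a larger share than the 4 of 26 tested members. The trend of Hoxc6 had opposite signs in the genotypes, with -0.10 per day in KO and 0.08 per day in WT.

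In liver slices the 24 h rhythm differed between KO and WT by limma's F test for Hoxa4 (adjusted p = 0.0114) and Hoxa5 (adjusted p = 0.0467), where 4.13% of all genes passed.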

How the results depend on the processing

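By adjusted p alone, 12235 genes and 25 members passed between KO and WT MSF, 9 of them higher and 16 lower in KO. The count of called members was 12 in all other alternatives except size factors, where it was 11 without Hoxb6, and 12 in all 48 fits without 1 library. With the time point as a replicate block it was also 12, and the replicate block gave 0 members in the short liver course, as did leaving out each replicate (0 to 0). Same-numbered liver samples did not deviate together (median correlation -0.01 over 12 pairs), so the numbers do not pair them, and the same held for MSF time points (median -0.01 over 24). No member's difference changed sign in 208 recomputed values, and 207 kept their call.

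With a pseudocount of 0.1, 3 members had a trend in WT MSF, without Hoxa7 and Hoxa9, and 1 member was called in slices, Hoxa3; the cause was not tested. Without 1 library the number with a trend was 3 to 7 in KO and 4 to 7 in WT, and that with a difference of slopes 4 to 5. In slices the rhythm in KO was called for 0 members without day 2 or day 3, for 4 without day 1 (with Hoxb5) and for 3 in the other settings, where without the filter Hoxa2 stood in place of Hoxa4. The difference of rhythms was called for 1 member, Hoxa4, with a pseudocount of 0.1 or no filter, and for 0 without day 2 or day 3. Leaving out 1 slice library gave 1 to 3 members with a rhythm in KO, the lowest without KO at 39 h (Hoxb4), and 1 to 3 with a difference, with Hoxa4 in all 48 fits. Detection counts were 19 to 20 in KO and 24 to 27 in WT over all limits tried. Depth is unknown, so whether a member listed at 0 is absent cannot be said, and values below 1 FPKM are given as levels only.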
